A study of Mus musculus with 9 samples.

Results

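The comparison described here set bone marrow cells of Cbfb+/mDE mice against cells of wild-type mice, across all genes. The mDE allele is described as a Cbfb fusion allele mutated in the multimerization domain. Members were taken by genotype label, which gave 6 of the 9 libraries of the study, 3 of WT and 3 of Cbfb+/mDE (mDE below). The remaining 3 libraries, labelled Cbfb+/MYH11 (MYH11 below), served to set the spread of each gene and as a reference level. By the labels, all mice were on the C57BL/6 strain and received pIpC, a double-stranded RNA analogue and interferon inducer, so the WT libraries share that treatment. How alike the genotypes are in strain background was not tested. Marrow cells were enriched with CD117 (c-Kit) beads and total RNA was sequenced. The labels give the mutant allele by the name mDE with no further description, so the account of the mutated domain is not taken from them. They name no Cre driver, age, sex or number of animals, and leave unsaid whether each library is a mouse of its own. The p-values therefore cover the spread among these libraries, part or all of which may be technical.

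CBFβ, the product of Cbfb, is the non-DNA-binding partner of the RUNX transcription factors and raises their affinity for DNA. The inv(16) rearrangement of acute myeloid leukaemia joins CBFβ to the tail of a smooth muscle myosin, encoded by MYH11, giving CBFβ-SMMHC. The myosin tail forms a coiled coil through which fusion molecules assemble into multimers. RUNX1 and CBFβ are needed for the formation of blood stem cells and for lymphoid, granulocytic and megakaryocytic differentiation.

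The 6 libraries held 39300366 to 50073097 reads, and every deposited value was a whole number of reads divided by a size factor. Values below are these normalised reads, and fold differences are ratios of the means of 3 libraries unless given on the log2(value + 1) scale. Libraries of one group correlated across genes at 0.990 to 0.992 (WT) and 0.986 to 0.989 (mDE) on that scale. Of 43629 genes listed, 15948 passed the filter on low counts and were tested with limma. A gene is called where its limma adjusted p, over all genes tested, is under 0.05.

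The genes joined in the fusion both changed in read count, Cbfb down and Myh11 up. Each value covers a whole gene, so reads of a fusion transcript and of the unfused genes cannot be told apart. Cbfb (chromosome 8, 105170674 to 105217989, GRCm38) stood at 7136, 6535 and 6929.8 normalised reads in WT and at 4957, 4941 and 5782 in mDE, a fall of 0.40 on the log2 scale (SE 0.07, limma adjusted p = 0.037). Myh11 (chromosome 16, 14194535 to 14291372) stood at 7.72, 8.64 and 4.70 in WT, at 28.7, 41.4 and 43.8 in mDE and at 219, 194 and 176 in MYH11. Neither gene overlapped between WT and mDE, and Myh11 was also higher in MYH11 than in mDE (limma adjusted p = 5.91e-05). The Cbfb call was lost when only WT and mDE were fitted (limma adjusted p = 0.0703) and was kept without 2 of the 9 single libraries (limma adjusted p up to 0.137), whereas the Myh11 call was kept without any 1 of the 9 libraries (0.00674 to 0.028).

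Kit, the receptor used for enrichment, was at 7362, 7354 and 7797 normalised reads in WT and at 6987, 7622 and 7159 in mDE, with overlapping ranges (log2 change -0.05, standard error 0.07, limma adjusted p = 0.729). Runx1, the DNA-binding partner of CBFβ, was at 3036, 2841 and 2929 in WT and at 3627, 3608 and 3506 in mDE. Its ranges did not overlap, yet it missed the threshold (log2 change 0.29, standard error 0.09, limma adjusted p = 0.132). Runx2 stood at 999 to 1321 in WT and 1454 to 1646 in mDE (limma adjusted p = 0.119), and Runx3 overlapped (limma adjusted p = 0.877). The list of the complex and its cofactors, to which Myh11 was added as a fusion partner, held 13 genes. Of these 2 were called, where 1.24% of all genes tested were. Both calls fell on the fusion partners, Cbfb and Myh11, and no other member was called. The median of the list was 0.26. The coactivator gene Crebbp was nearest to the threshold among the others (log2 fold change 0.35, limma adjusted p = 0.0544). Of 15 textbook Runx1-CBFβ targets tested, such as Csf1r, Mpo, Elane, Spi1 and Gfi1, 0 were called by limma, 0 by edgeR and 1 by DESeq2, with 3 at an unadjusted p under 0.05 where 19.8% of all genes tested were. Their median log2 fold change was 0.12, against 0.01 for all genes tested.

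In all, 198 genes were called, 1.24% of those tested, of which 131 rose (0.821%) and 67 fell (0.42%). At least 2-fold changes numbered 62 up and 22 down, and 57 called genes moved by less than 1.5-fold. WT and mDE libraries did not overlap in any of the 198, and over all genes tested that was so for 26.1%. The median log2 fold change was 0.92 among called rises and -0.62 among called falls. Most called genes, 176, were protein coding, and 32 of the rises and 11 of the falls stayed under 100 normalised reads in both groups. The gene just inside the threshold was Tspo (log2 fold change 0.31, limma adjusted p = 0.0498) and the gene just outside was Stxbp4 (0.54, 0.0517). With limma-voom the split was 77 up and 68 down. The number called ranged from 32 without WT replicate 2 to 262 without MYH11 replicate 2.

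**Figure D1:**
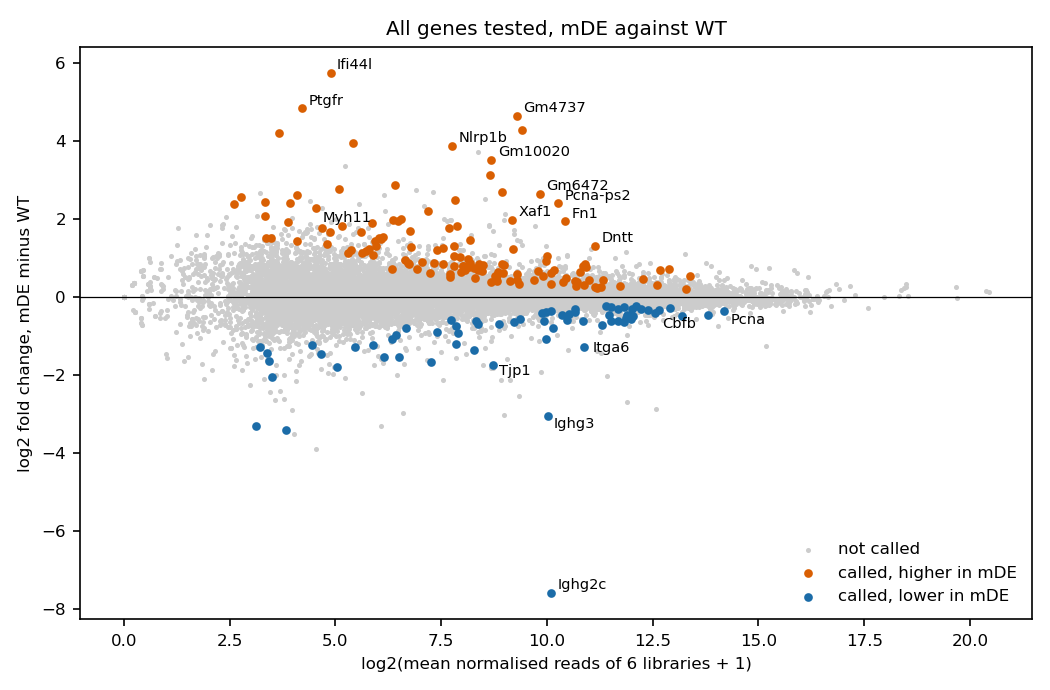
Log2 fold change of mDE against WT (vertical axis) for each gene tested, plotted against the log2 mean of the 6 libraries (horizontal axis); orange and blue points are the 131 called rises and 67 called falls. Most named rises with the largest changes lie between 1 and 6 on the vertical axis, and Ighg2c is the lowest point at -7.58.

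Genes of monocytes were the cell type list with the most calls, 5 of 26 tested, all up, where 0.821% of all genes tested were called up. For the lists that follow, the limma shares over all genes tested are 0.821% up and 0.42% down. Fn1, which encodes fibronectin, an adhesive matrix protein (chromosome 1, 71585520 to 71653200), stood at 622, 478 and 600.2 normalised reads in WT and at 2272, 2519 and 1789 in mDE. Every mDE library was far above the highest WT library, and the log2 fold change was 1.95 (SE 0.14, limma adjusted p = 0.000442). In MYH11 Fn1 reached 79972, 65084 and 70325, far above mDE (limma adjusted p = 1.18e-07). S100a4, a calcium-binding protein of motile myeloid cells, was at 391, 284 and 361 in WT and at 644, 824 and 994 in mDE (log2 change 1.24, standard error 0.18, limma adjusted p = 0.0179). F13a1, the coagulation factor XIII A chain made by monocytes, rose from 7832 to 9917 in WT to 12369 to 12827 in mDE (limma adjusted p = 0.0304). Emilin2, an extracellular glycoprotein, rose by 0.48 and Klf4, a transcription factor of monocyte differentiation, by 0.60 on the log2 scale (limma adjusted p = 0.014 and 0.0469). All 5 genes were higher again in MYH11 than in mDE, with Klf4 at 2617 to 3401 against 644 to 825.

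Without each of the 9 libraries in turn the Fn1 call was kept 9 times, Emilin2 7, S100a4 6 and F13a1 3 times. The other 21 monocyte genes were not called. Csf1r, the macrophage growth factor receptor, was at 3843, 4359 and 4758 in WT and at 4540.5, 5950.5 and 6715 in mDE, with overlap (limma adjusted p = 0.204). Irf8, a transcription factor of monocyte and dendritic lineages, did not overlap, at 3403 to 4966 against 5690.2 to 6315 (limma adjusted p = 0.0737). Over the list the median was 0.38, and 21 of 26 members were positive. The groups are bulk RNA, so a larger share of a cell type and more RNA per cell cannot be told apart, here and in the lists that follow.

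The lists of lymphoid priming and of dendritic cells with MHC class II gave 2 calls each, all up. Flt3, a cytokine receptor of multipotent and lymphoid progenitors (chromosome 5, 147330741 to 147400489), was at 803, 564 and 631 in WT, 1107, 1440.0 and 1598 in mDE and 2138, 1782 and 2051 in MYH11. The 3 genotypes did not overlap, and MYH11 was above mDE (limma adjusted p = 0.0169). Dntt, the terminal transferase that adds bases at antigen receptor joints (chromosome 19, 41029275 to 41059525), was at 1776, 1062 and 1075 in WT and at 3615, 2558 and 3468 in mDE. Its MYH11 libraries, at 2568, 3477 and 3729.6, overlapped those of mDE (limma adjusted p = 0.951). The Flt3 and Dntt calls against WT (limma adjusted p = 0.022 and 0.0308) were each kept without 5 of the 9 single libraries.

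Siglech, a surface lectin of plasmacytoid dendritic cells (chromosome 7, 55768178 to 55778925), was at 108, 57.6 and 115 in WT, 295, 279 and 367 in mDE and 303, 347 and 364 in MYH11. The mDE and MYH11 libraries shared one range, above every WT library (mDE against WT limma adjusted p = 0.0154; MYH11 against mDE 0.723). Cox6a2, a cytochrome oxidase subunit known from muscle and plasmacytoid dendritic cells, rose from 31.7 to 36.4 in WT to 69.4 to 124 in mDE (limma adjusted p = 0.0303, kept without 4 of the 9 single libraries). Genes of antigen presentation were not called, with H2-Aa at 3168 to 5694 in WT and 3066 to 7172 in mDE, and Cd74 overlapping too. The medians were 0.26 over 20 lymphoid genes and -0.02 over 23 dendritic cell and MHC class II genes. Of the lymphoid genes 17 were positive and 3 negative, and of the dendritic cell and MHC class II genes 11 were positive and 12 negative. In the lymphoid list Il7r, the interleukin-7 receptor, did not overlap between the groups and was not called (log2 fold change 0.79, limma adjusted p = 0.0967). Rag1, Rag2, Ebf1, Igll1 and Vpreb1 were each highest in mDE replicate 1, with Vpreb1 at 883 there and at 329 and 472 in the other mDE libraries. Without mDE replicate 1 the median of the lymphoid list moved from 0.26 to 0.11.

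**Figure D2:**
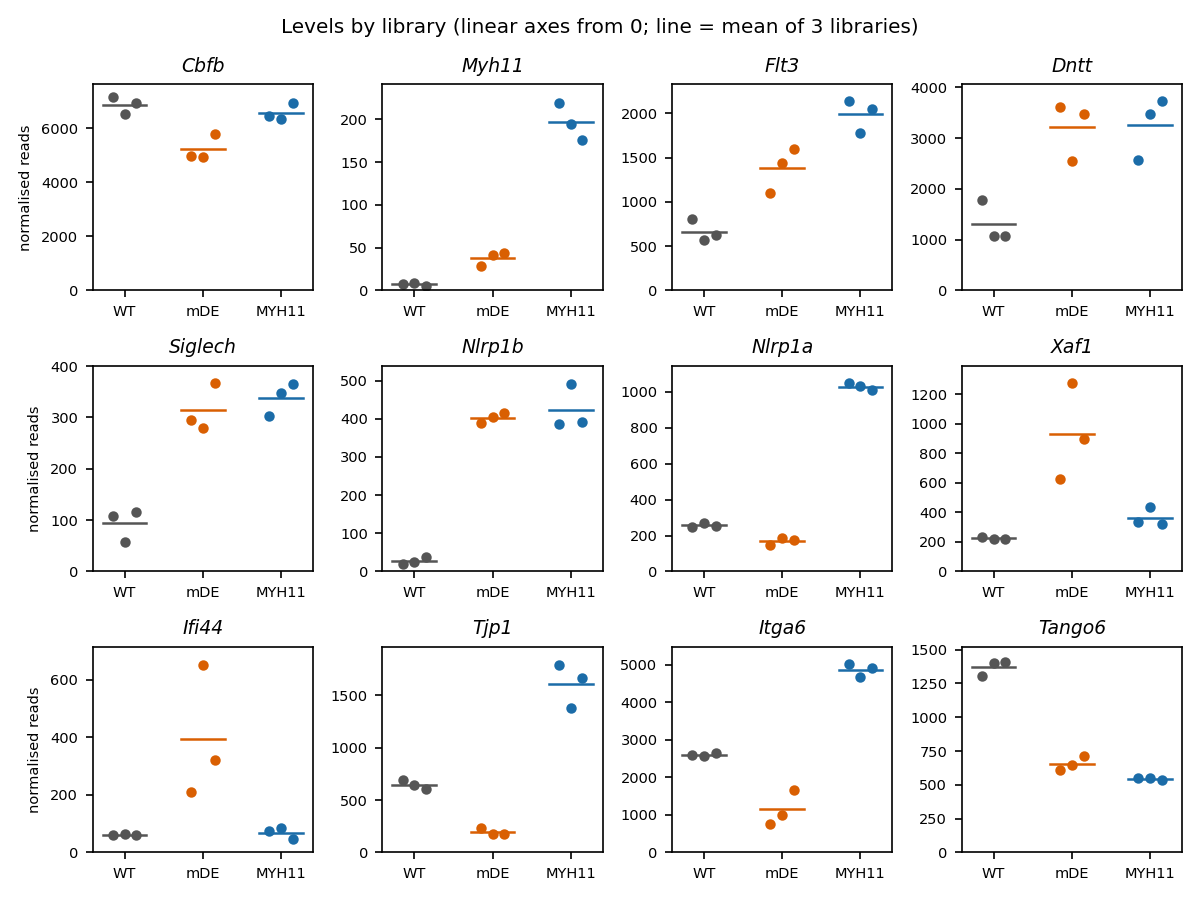
Normalised reads (vertical axes, linear from 0) of 12 called genes in each of the 9 libraries, with the mean of each genotype as a line. Nlrp1b and Siglech stand at about the same level in mDE and MYH11, whereas Tjp1, Itga6 and Nlrp1a are lowest in mDE and highest in MYH11.

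Of 28 stem and multipotent progenitor genes, 2 were called, both up, and 13 had no overlap between groups, all higher in mDE, where 13.9% of all genes did. Mn1, a transcriptional coregulator linked to myeloid leukaemia, was at 19.3, 12.5 and 8.22 in WT and at 40.8, 48.6 and 39.4 in mDE (log2 change 1.68, standard error 0.31, limma adjusted p = 0.0376). Eya1, a transcriptional cofactor, rose from 65.3 to 83.0 in WT to 115 to 153 in mDE (limma adjusted p = 0.0405). The Mn1 and Eya1 calls were each kept without 2 of the 9 single libraries and lost when only WT and mDE were fitted (limma adjusted p = 0.0706 and 0.0772). Among the genes that did not pass, Slamf1, a surface marker of stem cells, was at 35.2 to 49.2 in WT and 69.4 to 123 in mDE (limma adjusted p = 0.0737). Meis1, a homeobox factor of progenitors, was at 239 to 361 against 437 to 536 (limma adjusted p = 0.0767). The median of the list was 0.41, and 0.71 without mDE replicate 1. In the cytokine receptor list 2 of 25 members rose, Flt3 and Il10ra, the interleukin-10 receptor, which stood at 800.0 to 901 in WT and 1128 to 1629 in mDE (limma adjusted p = 0.0469, kept without 1 of the 9 single libraries).

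Type I interferon genes had the highest median of the lists, 0.53, with 33 of 35 members positive, yet 3 were called. edgeR called 3 and DESeq2 12, where over all 15948 genes tested they called 188 and 944. An unadjusted limma p under 0.05 was found for 16 members, where 19.8% of all genes tested had one. Ifi44l, an interferon-induced gene (chromosome 3, 151758737 to 151762892), had 0 reads in all 3 WT libraries and was at 30.9, 85.4 and 55.8 normalised reads in mDE. With a floor of 3 reads per WT library this is at least 18.5-fold higher in mDE (limma adjusted p = 0.000442). MYH11 was at 0, 0.852 and 0. Ifi44, its neighbour (chromosome 3, 151730922 to 151749960), was at 58.9, 63.3 and 61.1 in WT, 208, 650.3 and 321 in mDE and 46.1 to 83.5 in MYH11 (log2 change 2.51, standard error 0.38, limma adjusted p = 0.0213). Xaf1, an interferon-induced gene of the cell death machinery (chromosome 11, 72301629 to 72313733), was at 234, 218 and 219.6 in WT and at 624, 1276 and 897 in mDE (log2 change 1.99, standard error 0.23, limma adjusted p = 0.00624). These 3 genes were above every WT library in each mDE library, and within mDE all 3 were highest in replicate 2. The Ifi44l and Xaf1 calls were kept without any 1 of the 9 libraries, and the Ifi44 call without 5 of them. Ifi44 and Ifi44l lie in a stretch of chromosome 3, described below, where all 4 genes tested were called up. The others there, Adgrl4 and Ptgfr, are not in the interferon list.

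That order among the mDE libraries held for most of the list. Replicate 2 was the highest mDE library in 30 of 35 interferon genes, and the list's median log2 difference from the WT mean was 0.09, 0.94 and 0.56 in mDE replicates 1, 2 and 3. Ifit1, an inhibitor of viral translation, was at 90.7, 161 and 126 in WT and at 179.7, 618 and 289 in mDE (limma adjusted p = 0.127). Irf7, the transcription factor that amplifies the response, was at 665, 895 and 779 in WT and at 1016, 2488 and 1502 in mDE (limma adjusted p = 0.123). Both genes were higher in each mDE library than in any WT library, and the spread within mDE was larger than the distance from the highest WT library to the lowest mDE library. Other members, such as Oas2 and Oas3, overlapped. Without mDE replicate 2 the list's median was 0.36. The receptors Ifnar1 and Ifnar2 were not called (limma adjusted p = 0.362 and 0.211).

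**Figure D3:**
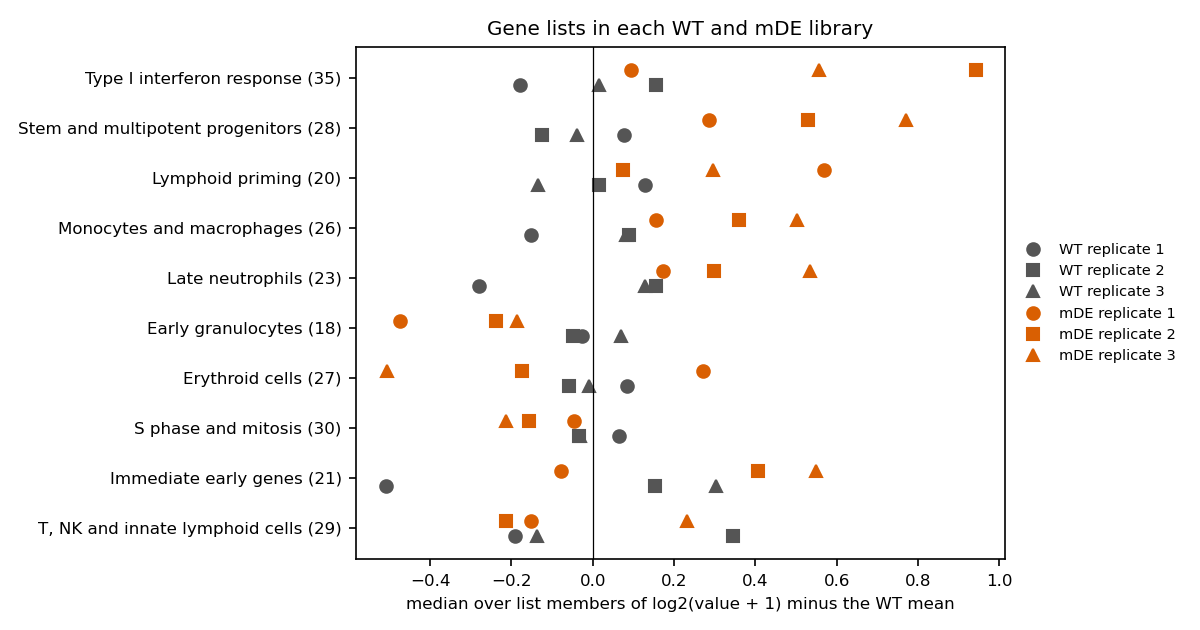
Median over the members of each list of log2(value + 1) minus the WT mean (horizontal axis) in each WT library (grey) and mDE library (orange), with symbols for replicates 1, 2 and 3. The interferon list is at 0.09, 0.94 and 0.56 in the mDE libraries, and the erythroid list at 0.27, -0.17 and -0.51.

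Genes of early granulocytes were mostly lower in mDE and late neutrophil genes mostly higher, and 1 of both lists was called. Cst7, cystatin F, an inhibitor of granule proteases, fell from 4749.6, 3939.9 and 4576 in WT to 2627, 3411 and 3131 in mDE (log2 change -0.54, standard error 0.10, limma adjusted p = 0.0393, kept without 2 of the 9 single libraries). Of 18 early granulocyte genes 15 were negative, and 9 did not overlap between the groups and were lower in mDE, where 12.1% of all genes did. Among these Elane, neutrophil elastase, was at 84716, 81378 and 91320.3 against 56967, 80525 and 63444 (limma adjusted p = 0.312). Prtn3, proteinase 3, was at 52519.9 to 56698 against 37304 to 46092 (0.157). Mpo, myeloperoxidase, overlapped, at 189519 to 232841 against 144561 to 199520.0 (0.389).

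The 23 late neutrophil genes had a median of 0.32 with 22 positive, and 0 were called by limma, edgeR or DESeq2 or had an unadjusted p under 0.05. Yet 10 of them did not overlap between the groups and were higher in mDE, where 13.9% of all genes did. The spread in the limma test is shared with MYH11, in which S100a8 stood at 41812.5, 82540 and 17291 (standard error of the mDE against WT change 0.46). Cxcr2, the chemokine receptor of mature neutrophils, was at 7318 to 10774 in WT and at 13208, 14160.3 and 27155 in mDE (limma adjusted p = 0.354). S100a8 and S100a9, abundant calcium-binding proteins of neutrophils, overlapped (limma adjusted p = 0.982 and 0.886). Replicate 3 was the highest mDE library in 20 of the 23 genes, and the list took 11.6% to 13.8% of reads in WT and 13.4% to 16.6% in mDE. Late neutrophil genes thus took a large share of reads in all 6 c-Kit-enriched libraries, and their part in other results was not tested.

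Of 30 genes of S phase and mitosis 2 were called, both down. The median was -0.14, 29 values were negative, and 14 genes were lower in mDE without overlap, where 12.1% of all genes were. The 2 called were Ube2c, a ubiquitin-conjugating enzyme of the anaphase-promoting complex, at 8732, 8261 and 8070.2 in WT and 7018, 6639 and 7116 in mDE (limma adjusted p = 0.037, kept without 1 of the 9 single libraries), and Pcna, whose reads are shared with a copy described below. Bub1, a spindle checkpoint kinase, was at 5028 to 5085 against 4011 to 4453 and was not called (limma adjusted p = 0.0724). Mki67, the Ki-67 antigen, overlapped (limma adjusted p = 0.98). Of 23 CDK inhibitor and p53 target genes 1 rose, Perp, a membrane protein induced by p53, from 141 to 195 in WT to 286 to 400.2 in mDE (log2 change 1.04, standard error 0.17, limma adjusted p = 0.0291, kept without 4 of the 9 single libraries). Trp53 itself and Cdkn1a overlapped (limma adjusted p = 0.794 and 0.304).

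Markers of cells that the bead selection could carry along were detected in both groups. Of 29 B and plasma cell genes 2 were called, both immunoglobulin heavy-chain constant genes. Ighg2c, the IgG2c constant gene, which some mouse strains carry as Ighg2a in its place, was at 1679, 1382 and 3466 in WT, 24.3, 20.7 and 1.09 in mDE and 724, 571 and 157 in MYH11 (mDE against WT log2 change -7.58, standard error 0.93, limma adjusted p = 0.00941). Ighg3 was at 1811, 2833 and 901 in WT, 116, 203 and 344 in mDE and 1283, 1088 and 983 in MYH11 (mDE against WT -3.05, SE 0.44, 0.0197). The lowest library of either other genotype lay above the highest mDE library for both genes. The plasma cell genes Jchain (17074 to 38219 in WT and 17790.4 to 22211 in mDE), Sdc1, Mzb1, Igkc and Ighm overlapped, as did Ighg1, Ighg2b and Igha. The share of reads in the list was 0.477% to 1.06% in WT and 0.524% to 0.605% in mDE.

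In the remaining lists few genes passed. Of 29 T and NK cell genes Rora, a nuclear receptor of innate lymphoid cells, rose from 34.6 to 41.5 in WT to 72.9 to 83.2 in mDE (limma adjusted p = 0.0272, kept without 4 of the 9 single libraries), while Cd3e, Cd3g, Cd4 and Cd8a overlapped. The erythroid, megakaryocyte, mast cell and eosinophil, stroma and immediate early lists had 0 of 27, 23, 22, 12 and 21 members called by limma, with medians of -0.13, 0.10, -0.30, -0.26 and 0.35. In these lists 1, 5, 7, 5 and 3 members had an unadjusted limma p under 0.05, edgeR called 0, 0, 1, 0 and 0, and DESeq2 called 1, 4, 2, 3 and 2. Erythroid genes separated the mDE libraries from each other, with replicate 1 the highest in 25 of 27 genes and list medians of 0.27, -0.17 and -0.51 in replicates 1, 2 and 3. Cxcl12, the niche chemokine, was at 76.3 to 96.5 in WT and 33.3 to 42.7 in mDE and was not called (limma adjusted p = 0.062).

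**Figure D4:**
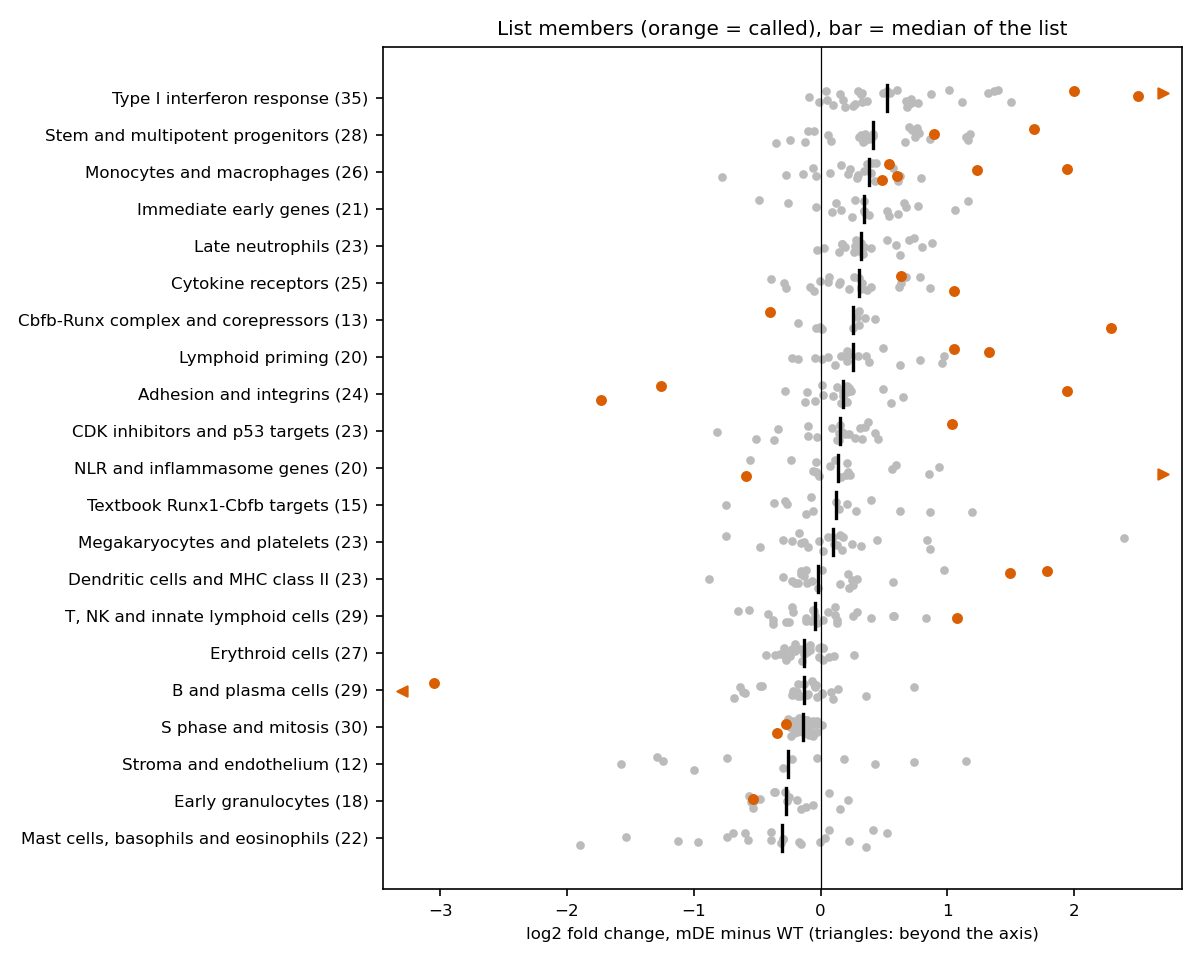
Log2 fold change of mDE against WT (horizontal axis) for each tested member of 21 gene lists, ordered by the list median (black bar), with called members in orange. The interferon list has the highest median, 0.53, and 3 called members, and the monocyte list has 5 called members.

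Adhesion genes gave both rises and falls. Tjp1, the tight junction scaffold ZO-1 (chromosome 7, 65296165 to 65527781), was at 691, 640.2 and 609.6 in WT, 233, 174 and 179 in mDE and 1791, 1379.9 and 1661 in MYH11. Itga6, the integrin α6 chain of laminin receptors (chromosome 2, 71745616 to 71858416), was at 2594, 2557 and 2649.8 in WT, 765, 999 and 1667 in mDE and 5013, 4683 and 4917 in MYH11. Both genes were thus lowest in mDE and highest in MYH11 with no overlap between any of the genotypes (mDE against WT limma adjusted p = 0.000452 and 0.0359; MYH11 against mDE 5.12e-07 and 3.61e-05). Itga6 was far apart among the mDE libraries, lowest in replicate 1 and highest in replicate 3, and its call was kept without 3 of the 9 single libraries. Fn1 was the only other of the 24 adhesion genes called, and Itgb1, the β1 chain, overlapped (limma adjusted p = 0.905).

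Rec8, a cohesin subunit of meiosis (chromosome 14, 55618037 to 55625395), was at 489, 474 and 377 in WT, 162, 160.1 and 199 in mDE and 1033, 1047 and 1033 in MYH11 (mDE against WT log2 change -1.36, standard error 0.12, limma adjusted p = 0.00165). Dmc1, the meiotic recombinase, was at 233, 223 and 241 in WT and 63.9, 54.9 and 107 in mDE (limma adjusted p = 0.037, kept without 3 of the 9 single libraries), and lower still in MYH11, at 21.3 to 42.6 (MYH11 against mDE 0.00489). Syce2, of the synaptonemal complex and named here after its values were seen, fell by 0.43 (limma adjusted p = 0.0469). Tango6, linked to transport through the Golgi (chromosome 8, 106683068 to 106851439), was at 1308, 1402 and 1407 in WT and 606, 644 and 711 in mDE (log2 change -1.07, standard error 0.07, limma adjusted p = 0.000373). Tango6 stood at 533 to 551 in MYH11, and it lies within 5 Mb of Cbfb. Arhgap31, a GTPase-activating protein for Cdc42 and Rac1, fell from 1329.7 to 1499 in WT to 749.6 to 880.0 in mDE (limma adjusted p = 0.00512), and stood at 2947 to 3515 in MYH11.

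Further falls were of Bdh1, a ketone body dehydrogenase (log2 fold change -1.19), Btnl9, a butyrophilin-like surface protein (-0.62), Cd72, a B cell coreceptor (-0.67), Glis3, a zinc finger factor (-0.73), and B4galt4, a galactosyltransferase (-0.64), with limma adjusted p from 0.0168 to 0.0469. B4galt4 was at 712 to 731 in WT, 429 to 496 in mDE and 423 to 495 in MYH11, and its mDE and MYH11 libraries overlapped (MYH11 against mDE limma adjusted p = 0.906). Phkb, a phosphorylase kinase subunit, had the same arrangement, at 3784 to 4160.2 in WT, 2403 to 2848 in mDE and 2368 to 2831 in MYH11 (MYH11 against mDE 0.738). Bdh1, Btnl9 and Cd72 were lower again in MYH11 than in mDE.

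Among rises outside the lists, Zfp467, a zinc finger factor, was at 112, 155 and 114 in WT and 303, 308 and 335 in mDE (log2 change 1.32, standard error 0.14, limma adjusted p = 0.00453), with MYH11 at 362 to 412. Lgr4, a receptor for R-spondins, rose from 138 to 147 in WT to 233 to 344 in mDE (limma adjusted p = 0.0444) and stood at 83.3 to 132 in MYH11. Some called genes, picked out after their values were seen, belong to known pairs or families. Erbb3, a receptor tyrosine kinase, rose from 179.7 to 203 in WT to 308 to 343 in mDE, and its ligand gene Nrg1, neuregulin 1, from 169.9 to 202 to 274 to 393 (limma adjusted p = 0.0281 and 0.0314). Smo, the transducer of hedgehog signals, rose from 631 to 749.8 to 1013 to 1524 (0.0274). Rarg and Thrb, nuclear receptors for retinoic acid and thyroid hormone, rose by 0.84 and 1.31 on the log2 scale (0.0179 and 0.037). Ulk1 and Ulk2, kinases that start autophagy, rose by 0.31 and 0.29 (0.0304 and 0.0469). Mbp, myelin basic protein, which blood cells also express in other isoforms, had one of the tightest changes, from 5494, 5866 and 5716 in WT to 9131, 9332 and 9574 in mDE, with MYH11 at 4759 to 5328 (mDE against WT limma adjusted p = 0.000452).

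Of the Nlrp1 inflammasome sensors, Nlrp1b rose and Nlrp1a fell. Nlrp1b (chromosome 11, 71153102 to 71230733) was at 19.3, 24.95 and 37.6 in WT, 388, 405 and 415 in mDE and 387, 490.1 and 391 in MYH11. The mDE and MYH11 libraries shared one range far above the WT libraries, and no difference between them passed the test (MYH11 against mDE log2 change 0.06, standard error 0.22, limma adjusted p = 0.831). Nlrp1a, its neighbour and paralogue, was at 246, 269.7 and 253 in WT, 148, 188 and 176 in mDE and 1009 to 1047 in MYH11 (mDE against WT limma adjusted p = 0.036). The Nlrp1a call was kept without 3 of the 9 single libraries and lost when only WT and mDE were fitted (limma adjusted p = 0.0979). The genes of this family are alike in sequence, so reads could be split between them, which was not tested. Neither Nlrp1a nor Nlrp1b was among the 16 called genes with a near-identical match described below. Nlrp1a and Nlrp1b were the called ones of 20 inflammasome genes tested, of which edgeR called 2, DESeq2 4 and the unadjusted test 6, with Nlrp3 at 316 to 608 in WT and 765 to 911 in mDE (limma adjusted p = 0.0737) and Casp1, Pycard and Gsdmd overlapping.

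Many of the largest rises were of genes close in sequence to another gene, called copies below, with the other gene called the parent. Not all are processed copies: Gm3650 is annotated as an unprocessed pseudogene. Akr1c13, BC117090 and Gm14085 are annotated as protein coding and lie on the chromosome of their match. Of 197 called genes with a transcript, 16 matched a protein-coding transcript of another gene at 90% identity or more over at least 50% of their length, and 14 of the 16 were rises. The sequences below show how alike copies and parents are, so that their read counts are uncertain; each line is a stretch of 90 bases of coding sequence, 5′ to 3′, from GENCODE M21 transcripts of GRCm38, with capitals at the bases where the copy and the parent differ. Gm4737 differs from Ahcy at 4 of 1296 aligned coding bases, Pcna-ps2 from Pcna at 6 of 781, Gm6472 from Rps7 at 3 of 582, and Gm10020 from Rpl15 at 2 of 612.
Ahcy: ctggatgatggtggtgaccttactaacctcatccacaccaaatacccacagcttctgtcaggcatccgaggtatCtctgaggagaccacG
Gm4737: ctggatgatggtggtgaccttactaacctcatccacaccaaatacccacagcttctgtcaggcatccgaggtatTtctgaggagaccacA
Pcna: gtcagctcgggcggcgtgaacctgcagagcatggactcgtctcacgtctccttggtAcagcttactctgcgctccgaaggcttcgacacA
Pcna-ps2: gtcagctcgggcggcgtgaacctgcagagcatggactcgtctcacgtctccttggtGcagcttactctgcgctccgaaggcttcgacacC
Rps7: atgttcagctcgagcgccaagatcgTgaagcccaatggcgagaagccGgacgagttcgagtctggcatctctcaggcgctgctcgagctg
Gm6472: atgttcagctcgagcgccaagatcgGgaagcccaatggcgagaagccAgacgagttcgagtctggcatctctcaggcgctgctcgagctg
Rpl15: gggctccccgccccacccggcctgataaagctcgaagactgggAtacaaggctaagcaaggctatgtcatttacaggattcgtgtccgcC
Gm10020: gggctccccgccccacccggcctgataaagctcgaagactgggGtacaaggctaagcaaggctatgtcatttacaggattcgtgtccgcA

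Ahcy, the enzyme that clears S-adenosylhomocysteine (chromosome 2, 155059310 to 155074497), was at 4585, 4211 and 4271 in WT and 2254, 3166 and 3176 in mDE, and was called down (log2 fold change -0.62, limma adjusted p = 0.0428). Its copy Gm4737 (chromosome 16, 46152985 to 46155077) was at 51.1, 48.9 and 34.1 in WT and 1842, 897 and 870.1 in mDE (log2 change 4.65, standard error 0.29, limma adjusted p = 0.000178). The copy was highest and the parent lowest in mDE replicate 1, and their sum varied little, at 4260.4 to 4636 in WT and 4046 to 4096 in mDE. When the reads of the pair were summed before the fit, a setting chosen after seeing the data, the log2 fold change was -0.11 and not called (limma adjusted p = 0.221).

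Other pairs with a parent on chromosome 2 had the same arrangement. Eif3j1, a subunit of translation initiation factor 3, was at 3079 to 3122 in WT and 1518, 2203 and 2082 in mDE, while Eif3j2 was at 106 to 149.6 and 1297, 629.6 and 659. Their sum was at 3221 to 3229 in WT and 2741 to 2832 in mDE (log2 fold change -0.21, limma adjusted p = 0.0763). Pcna, the sliding clamp of DNA polymerases, was at 19994 to 21886 in WT and 15922 to 16772 in mDE, while Pcna-ps2 was at 332 to 443 and 3180.2, 1513 and 1597. The summed pair was not called (log2 fold change -0.20, limma adjusted p = 0.102). Gm3650, with the parent Spg11, had the same order, at 84.9, 48.6 and 41.6 in mDE. In these copies mDE replicate 1 was at 2.09 (Gm4737), 2.05 (Pcna-ps2), 2.01 (Eif3j2) and 1.88 (Gm3650) times the mean of replicates 2 and 3.

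Some copies with parents on chromosomes 12 and 14 were at close levels in the 3 mDE libraries. Gm6472, with the parent Rps7, a ribosomal protein gene on chromosome 12, was at 263, 255 and 236 in WT, 1608, 1531 and 1611 in mDE and 235 to 331 in MYH11. It had the smallest limma adjusted p of the comparison, 4.05e-05. Gm10020, with the parent Rpl15 on chromosome 14, was at 72.4, 49.9 and 75.2 in WT and 751, 747 and 776 in mDE, and Rpl15-ps2 was at 74.3 to 96.0 and 702 to 765. Gm10704 (parent Rtraf) and Gm6123 (parent Pdhb), also with parents on chromosome 14, rose by 2.89 and 2.21 on the log2 scale. For these 5 copies the ratio of mDE replicate 1 to the mean of replicates 2 and 3 was 0.821 to 1.02. It was 1.25 for Gm8420, a low copy of Rpl15, and 0.746 for BC117090, and Gm13675, with the parent Mrpl18 on chromosome 17, fell by 1.42 on the log2 scale. Of 13 families of copies and parents summed before the fit, 1 was called, Akr1c12 with Akr1c13, aldo-keto reductases (limma adjusted p = 0.0467), and the ribosomal protein families Rpl15 and Rps7 were at log2 fold changes of 0.01 and -0.04. Where the parent far outweighs its copies, the sum cannot show a change of the copies. That was so for Rps7 and Rpl15, with mDE means of 30404.5 and 17525.9. Uncalled families with larger log2 fold changes were BC100530 with BC117090 at 2.25 (limma adjusted p = 0.0896), Slc28a2 with Gm14085 at -0.76 (0.149) and Spg11 with Gm3650 at -0.43 (0.139). Genes called in total were then 164, 107 up and 57 down, of which 163 were among the 198.

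**Figure D5:**
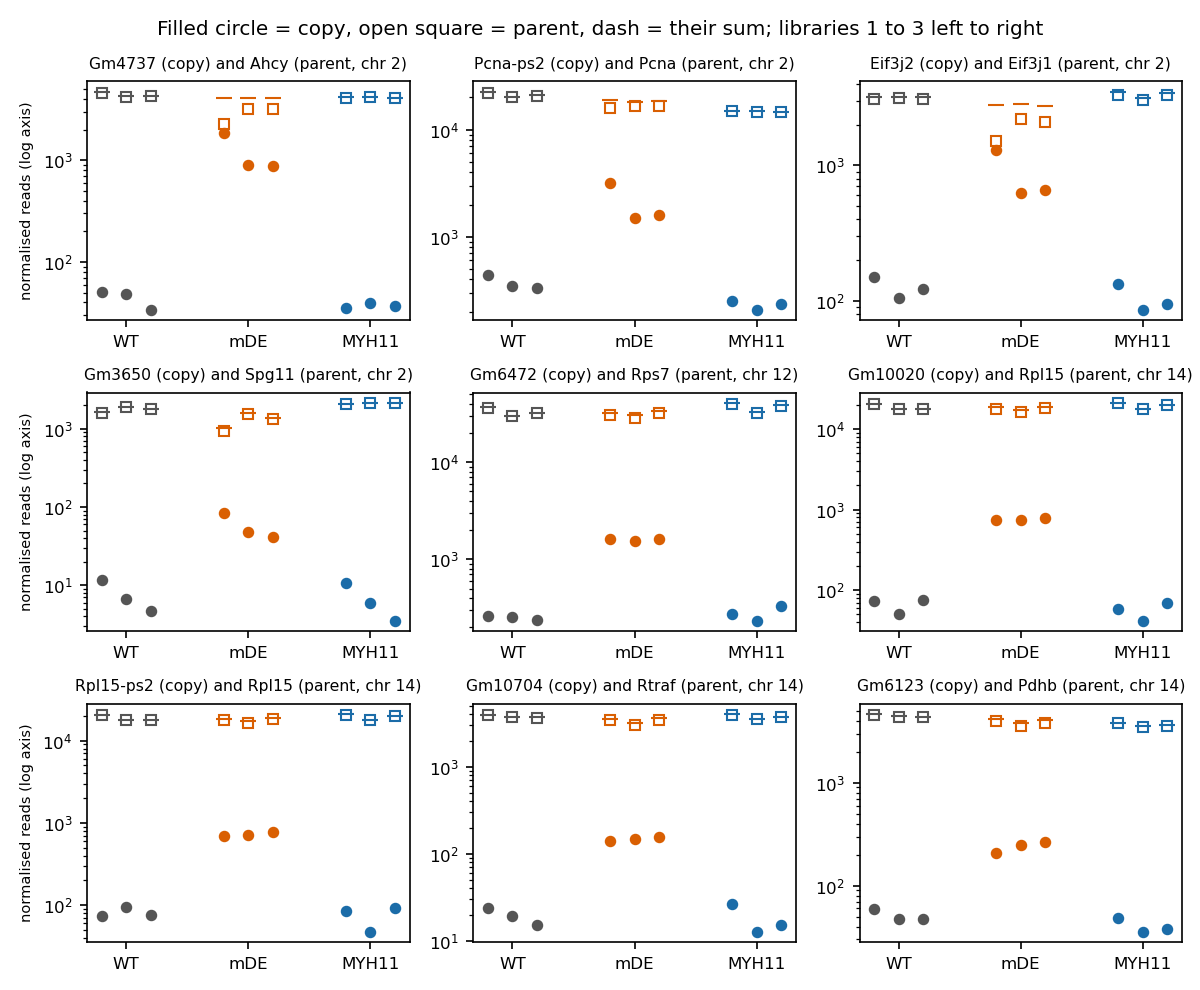
Normalised reads (vertical axes, log scale) of 9 copies (filled circles), their parent genes (open squares) and the sum (dashes) in each library, with libraries 1 to 3 from left to right within a genotype. In mDE the copies rise in all 3 libraries, those with a parent on chromosome 2 most in replicate 1, and in MYH11 they stand near the WT level.

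Called genes lay near each other in places. Of 197 with a position, 80 were within 1 Mb of another called gene, in 33 groups, of which 5 held 4 called genes. The same count was not made for all genes tested or for other sets of this size, so the 80 have no baseline. The 5 groups spanned 4, 12, 12, 41 and 54 genes tested. Members of some groups overlap in position, such as 3110053B16Rik and Zfp125 on chromosome 12. On chromosome 3 all 4 genes tested between Adgrl4 (from 151437887) and Ptgfr (to 151837630) rose, namely Adgrl4, an adhesion receptor, Ifi44, Ifi44l and Ptgfr, the prostaglandin F receptor. Ptgfr was at 0, 0.96 and 0 in WT, 37.5, 31.5 and 36.1 in mDE and 0 in MYH11. From 1 WT read and 102 mDE reads its ratio was 102 (exact 95% interval 17.9 to 4063, counting error only). Adgrl4 was at 1249.6 to 1633 in WT, 2149.5 to 2913 in mDE and 1374 to 1615 in MYH11, so all 4 genes were higher in mDE than in either other genotype.

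The group on chromosome 11 held Nlrp1a, Nlrp1b, Mink1 and Dlg4, with Dlg4, a synaptic scaffold, at 194 to 229 in WT and 327 to 376 in mDE. The group on chromosome 15 held Gml, Gml2, Lynx1 and the gene model Gm5960, of which the first 3, all of the Ly6 family, fell. Gml was at 13.5, 13.4 and 17.6 in WT, 1.10, 0.899 and 0 in mDE and 0 in MYH11 (43 WT reads against 2 mDE reads, ratio 21.5, exact 95% interval 5.61 to 183). On chromosome 2 a group held Pcna with Slc23a2, Trmt6 and Lrrn4, and on chromosome 8 one held Phkb with Syce2, Wdr83os and Il27ra. By autosome the share called ran from 0.508% of genes tested on chromosome 17 to 2.13% on chromosome 16, with 2.07% (26 of 1258) on chromosome 2 and 1.97% (16 of 812) on chromosome 8, beside 1.24% over all. Within 10 Mb of Cbfb, with Cbfb itself counted, 3 of 150 genes tested were called, namely Cbfb, Cmtm3 and Tango6. Between 10 and 25 Mb 8 of 256 were called.

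Promoters were searched for short motifs in RefSeq windows of GRCm38.p6, from 250 bases before to 50 after each start, on both strands. The Runx core TGTGGT, which reads ACCACA on the other strand, was in 15.9% of 10872 genes with a window, 18.4% of 87 called rises and 16.3% of 49 called falls. The interferon response core, GAAA repeated after a gap of 2 bases, was in 3.98% of all, 4 of 87 called rises and 63.0% of 27 interferon list genes, and in none of the windows of Ifi44, Ifi44l and Xaf1. A match is a description of letters, not of binding. The windows of Siglech and of the second listed start of Nlrp1b, genes whose mDE and MYH11 libraries overlapped, each hold 1 match to TGTGGT, in capitals below (as ACCACA in Siglech), and the other listed Nlrp1b window holds none. The window of Dntt, whose mDE and MYH11 libraries also overlapped, holds no match, nor do those of Flt3, Tjp1 and Cbfb. The Siglech window is chr7:55767934-55768233 on the plus strand and the Nlrp1b window chr11:71230684-71230983 on the minus strand.
Siglech: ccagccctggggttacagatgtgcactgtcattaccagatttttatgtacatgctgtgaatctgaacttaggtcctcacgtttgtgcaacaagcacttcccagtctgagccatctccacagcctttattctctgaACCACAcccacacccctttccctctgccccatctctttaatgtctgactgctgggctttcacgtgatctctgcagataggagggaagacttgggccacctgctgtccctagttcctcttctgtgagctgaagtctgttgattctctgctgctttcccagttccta
Nlrp1b: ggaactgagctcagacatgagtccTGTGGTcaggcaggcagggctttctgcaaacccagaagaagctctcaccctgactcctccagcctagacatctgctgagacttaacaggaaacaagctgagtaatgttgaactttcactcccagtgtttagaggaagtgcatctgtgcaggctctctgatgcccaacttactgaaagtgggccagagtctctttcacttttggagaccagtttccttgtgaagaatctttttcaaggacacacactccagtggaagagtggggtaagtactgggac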

How the data were processed

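RNA sequencing values of 9 libraries (3 each of WT, mDE and MYH11) were used. Per the submitters' processing notes, CASAVA 1.8.2, STAR 2.4, RSEM and DESeq2 were used with GRCm38, with no role or order given. The authors deposited 1 normalised signal value per gene and library. Each column was divided by its smallest nonzero value, which gave whole reads for 100% of values within a relative tolerance of 1e-06. The deposited log2 fold change and p-value columns were not used. Symbols and positions were matched to GENCODE M21 for 42462 of 43629 genes, and 17919 genes were 0 in all libraries. No 2 libraries held identical values.

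Genes were kept with filterByExpr (edgeR 4.0.16) on the recovered reads. limma-trend (limma 3.58.1, R 4.3.3) was fitted on log2(value + 1) over all 9 libraries with a single term, genotype, which left 6 residual and 3.2 prior degrees of freedom. Tests were two-sided with Benjamini-Hochberg adjustment over 15948 genes and a threshold of 0.05. The contrasts were mDE against WT and, for named genes, MYH11 against mDE. The log2(value + 1) scale understates the change of low genes. A count of 0 allows up to 3 reads, equal to 2.70 to 3.52 normalised reads in WT and mDE. Floors and intervals cover counting error alone, since there are no molecular identifiers.

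The 21 lists of genes, the choice of named genes and the tests were made with earlier results of these data known. Genes named by rule were Cbfb, Myh11, Runx1 and Kit, the 15 largest rises and falls past 5 CPM without overlap and without gene models and antigen receptor segments, up to 4 called members of each list (or its 3 most abundant members where fewer than 2 were called), the gene models with the smallest p, and the leading gene of groups of neighbouring called genes. Other list members, and the called pairs and families the text marks as such, were named after their values were seen. Lists are described by counts and medians with no set test. Of list members, Ahsp and Iglc1 were not matched. Near-identical copies were found by aligning GENCODE M21 transcripts. The test was tested on simulated data. Alternatives were other scalings, filters and pseudocounts, limma-voom, edgeR and DESeq2 (1.42.0) on the reads recovered, a fit of WT and mDE only, a replicate term, and leaving out each library. Summing reads over copies was added after seeing the data. Some genes are not reported here.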

Additional observations from a re-analysis of the deposited data

How the results depend on the processing

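The 198 calls were 201 under TMM scaling (121 up, 80 down), 200 with recomputed DESeq2 size factors, 191 under upper-quartile scaling, 159 without the filter, 195 and 205 with pseudocounts of 0.5 and 4, 188 with edgeR (112 up, 76 down) and 145 with limma-voom (77 up, 68 down). They were 123 with a filter of 5 CPM in 3 libraries, 944 with the DESeq2 Wald test (593 up, 351 down) and 123 when only WT and mDE were fitted, of which 123, 185 and 92 were among the 198. Leaving out 1 library gave 32 to 262 calls: 89, 32 and 39 without WT replicates 1, 2 and 3, 207, 123 and 90 without mDE replicates 1, 2 and 3, and 86, 262 and 107 without MYH11 replicates 1, 2 and 3. Leaving out genes near Cbfb, receptor segments and gene models kept 168, and summing reads over copies gave 164. Fewer samples enter the fits that leave out a library or MYH11; otherwise the cause of these differences was not tested.

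The replicate numbers gave no clear sign of pairing: the correlation of same-numbered deviations of WT and mDE was 0.11, -0.014 and 0.015. Differently numbered libraries ran from -0.081 to 0.075, and these values cannot settle whether samples were paired. With the replicate block 101 genes were called (73 up, 28 down), 86 of them among the 198, and calls of named genes lost under the block included Flt3 (limma adjusted p = 0.0529), Dntt (0.064) and Itga6 (0.0539).

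Of 58 called named genes, 21 kept the call in every alternative that tested them, among them Fn1, Nlrp1b, Tjp1, Tango6, Rec8, Xaf1, Zfp467, Arhgap31, Myh11, Ifi44l, Ptgfr, Gm6472 and Gm4737. Summing reads over copies was not among the alternatives counted for copies and their parents. Summed with their parents, Gm6472 and Gm4737 were not called (limma adjusted p = 0.867 and 0.221). The sum with Gm6472 consists mostly of Rps7 reads, so it could not show a change of Gm6472. None of the 58 reversed in mDE against WT. Signs turned in values that were not called. In mDE against WT, Car1 was -0.0134 under TMM, -0.0052 under upper-quartile scaling and -0.011 with limma-voom, and Il2rb was -0.0115 with edgeR. In MYH11 against mDE, B4galt4 was -0.00635 and Dntt -0.0021 with recomputed size factors, and B4galt4 was -0.00256 with the DESeq2 Wald test. Leaving out 1 library, the mDE against WT values ran from -0.19 to 0.073 (S100a8), -0.011 to 0.24 (S100a9), -0.19 to 0.15 (Car1), -0.031 to 0.067 (Cd24a), -0.12 to 0.20 (Il2rb), -0.045 to 0.18 (Cdkn2d) and -0.00602 to 0.26 (Myc). The MYH11 against mDE values ran from -0.044 to 0.089 (B4galt4), -0.12 to 0.031 (Phkb), -0.14 to 0.18 (Dntt) and -0.049 to 0.12 (Nlrp1b). Of 462 list medians recomputed, 14 moved by more than the spread between replicates.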
